A study of Mus musculus with 36 samples.

Results

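Granulocyte-macrophage progenitors (GMPs) of young and aged mice were compared by the regions of open chromatin called in each of their ATAC-seq libraries. The comparison used 4 of the 36 libraries of the series, chosen by their labels: 2 of GMPs from mice aged 10 weeks (young 1 and young 2) and 2 of GMPs from mice aged 20 months (aged 1 and aged 2). All mice were C57BL/6 with no further allele or treatment named, and in both groups 20000 cells per library had been sorted from bone marrow: c-kit+, CD34+ and FcgR+ cells that were Lin-, IL-7- and Sca-1-. Marrow was pooled before sorting, and the labels do not say whether the 2 libraries of one age came from separate pools, so the spread between them may be technical. The other 32 libraries were of stem cells (HSCs), of the multipotent fractions MPP1 to MPP4, of common lymphoid progenitors (CLPs) and of progenitors of megakaryocytes and erythrocytes (MEPs), and were used only where stated. Peaks of the 4 GMP libraries that overlapped by 1 bp or more were merged into 75230 regions, against 105005 regions when all 36 libraries were merged. A library calls a region when at least 1 of its peaks overlaps it. Regions called in both aged and neither young library are named aged-only here, regions called in both young and neither aged library young-only, regions called in exactly 1 young and 1 aged library mixed, and regions called in all 4 libraries shared.

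GMPs are progenitors of the bone marrow that give rise to neutrophils and to monocytes and macrophages. Their identity rests on transcription factors of the C/EBP family and on PU.1, which open enhancers of granule proteins such as myeloperoxidase and of receptors for colony-stimulating factors, while GATA factors serve the megakaryocyte, erythroid and mast cell lineages. AP-1, a dimer of Jun and Fos family proteins, acts at enhancers that respond to growth factors and to inflammatory signals. In ATAC-seq a transposase inserts adapters into accessible DNA, so that piled-up fragments mark open promoters and enhancers.

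The stretches of DNA on which the differences between the ages are shown are printed here, each as the 141 bases centred on the summit of a region, from the plus strand of the GRCm38 (mm10) reference genome. They were chosen because they carry the letters of a GATA, AP-1 or STAT site at regions called in one age, or lower in one age, near a gene described in the results. They are a selection: AP-1 letters also stood in aged-only regions upstream of Kit and Myb and in introns of Tcf7 and Bace2. GATA letters also stood in young-only regions upstream of Meis1 and in an intron of Atp13a3. Capitals mark the letters of a motif on either strand, and motifs may overlap. Of the 11 motifs searched, those found in these stretches were AGATAA for GATA factors (within 100 bp of the summit in 7.5% of all GMP regions), TGTGGT for RUNX factors (25.5%), TTGCNNAA for C/EBP factors (16.3%), GAGGAAGT for PU.1 (10.4%), TGANTCA for AP-1 (10.2%) and TTCNNNGAA for STAT factors (5.36%). The first 4 lines are aged-only, the next 5 are young-only, and the last is a shared region that was lower in aged libraries.
Cntnap5b intron, chr1:100100577-100100717: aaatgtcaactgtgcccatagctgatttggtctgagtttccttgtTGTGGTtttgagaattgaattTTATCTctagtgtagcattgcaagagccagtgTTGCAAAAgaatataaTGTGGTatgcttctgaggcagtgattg
intergenic, nearest Nr3c2, chr8:76539806-76539946: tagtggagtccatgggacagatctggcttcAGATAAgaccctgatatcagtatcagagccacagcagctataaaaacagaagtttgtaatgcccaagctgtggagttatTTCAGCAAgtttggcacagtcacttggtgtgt
Aldh1a1 promoter, chr19:20601807-20601947: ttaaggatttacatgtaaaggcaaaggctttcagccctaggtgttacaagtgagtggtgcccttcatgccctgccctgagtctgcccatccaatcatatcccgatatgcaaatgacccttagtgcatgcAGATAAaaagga
intergenic, nearest Kit, chr5:75460612-75460752: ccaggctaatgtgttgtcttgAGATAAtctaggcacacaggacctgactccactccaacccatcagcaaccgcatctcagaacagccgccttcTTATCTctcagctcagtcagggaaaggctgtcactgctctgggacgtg
Tbc1d2b intron, chr9:90253666-90253806: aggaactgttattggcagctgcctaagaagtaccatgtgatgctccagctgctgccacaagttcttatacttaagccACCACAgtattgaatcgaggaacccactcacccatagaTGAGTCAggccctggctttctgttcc
intergenic, nearest Tnfaip3, chr10:19047533-19047673: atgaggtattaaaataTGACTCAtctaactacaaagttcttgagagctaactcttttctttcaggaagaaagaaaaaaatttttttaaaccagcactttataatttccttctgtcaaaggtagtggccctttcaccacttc
Ccnd3 intron, chr17:47543431-47543571: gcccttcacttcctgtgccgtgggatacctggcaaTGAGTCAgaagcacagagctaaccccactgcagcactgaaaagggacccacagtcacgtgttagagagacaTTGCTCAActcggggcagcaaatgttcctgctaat
intergenic, nearest Flt3, chr5:147410770-147410910: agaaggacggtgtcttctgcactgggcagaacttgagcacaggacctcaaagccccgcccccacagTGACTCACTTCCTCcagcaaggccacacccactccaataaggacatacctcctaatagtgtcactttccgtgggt
Csf2rb intron, chr15:78334535-78334675: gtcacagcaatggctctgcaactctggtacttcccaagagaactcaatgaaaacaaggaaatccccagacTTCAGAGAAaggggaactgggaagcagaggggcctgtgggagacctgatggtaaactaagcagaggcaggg
intergenic, nearest Ifnar1, chr16:91475908-91476048: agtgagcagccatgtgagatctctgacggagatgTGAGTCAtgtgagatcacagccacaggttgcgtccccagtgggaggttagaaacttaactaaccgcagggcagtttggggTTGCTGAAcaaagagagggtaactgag

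The libraries were alike in depth, and the marks of GMP identity were open in both ages. About 8.99 M reads (M, 1e6) lay behind each of the 4 libraries, as recovered from the background of their peaks. The libraries held 52576 (young 1), 63288 (young 2), 61269 (aged 1) and 60550 (aged 2) peaks. The 2 young libraries therefore lay on either side of the 2 aged ones. Young GMPs had a mean of 57932 ± 7575 and aged GMPs one of 60910 ± 508 peaks (SD, n = 2 each), a difference of 2977.5 peaks with an exact permutation p of 1, where 2 libraries against 2 allow no p below 0.333. Of the genes that define the cell type, Mpo (myeloperoxidase), Elane and Ctsg (proteases of neutrophil granules), Cebpa, Csf3r and Csf1r (receptors for G-CSF and M-CSF), Fcgr3, Kit and Cd34 had a promoter region called in all 4 libraries. The region nearest to the transcription start site (TSS) of Prtn3, 1390 bp away, was called in all 4 as well, and that of Cebpe, which acts later in granulocytes, in all but aged 1. Ly6a, which encodes the Sca-1 antigen that the sort selects against, had no region within 1 kb of its TSS, and the nearest one, 4913 bp away, was called in young 2 and aged 1. Fold enrichment, the height of a summit over its local background as the peak caller gives it, was 9.90 and 12.1 in young against 11.7 and 11.2 in aged libraries at the promoter of Mpo. At the promoter of Elane it was 10.8 and 9.50 against 13.2 and 12, and at that of Cebpa 18.7 and 17.1 against 22.1 and 17.3. The aged values of Elane lay above both young ones, the ranges of Mpo and Cebpa overlapped, and none of these promoters passed the threshold (limma, Benjamini-Hochberg adjusted p of 0.996, 0.935 and 0.989).

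Most accessible regions of GMPs were called in both ages. Of the 75230 regions, 44702 (59.4%) were shared. Aged-only regions numbered 2146, which was 2.85% of all GMP regions, and young-only regions 1008, which was 1.34%. In bulk libraries, a change in the share of a cell type and a change within its cells cannot be told apart. The noise of such calls was read from the other 2 ways of pairing the 4 libraries. Pairing libraries of the same replicate number gave 543 regions called only in young 1 and aged 1 and 2155 called only in young 2 and aged 2. The remaining pairing gave 479 regions called only in young 1 and aged 2 and 2221 called only in young 2 and aged 1. In total, 3154 regions followed age against 2698 and 2700 in the other pairings, a ratio of 1.17 to their mean (exact permutation p of 0.333, the smallest that 3 pairings allow). The number of aged-only regions lay just below those of the other pairs that leave out young 1, the library with the fewest peaks. Young-only regions, in contrast, were more numerous than those of either other pair that holds young 1. When the same number of peaks, 52576, was taken from each library, 1468 regions were aged-only and 1410 young-only, so the excess of aged-only regions moved with the number of peaks per library. The total over the mean of the other pairings was then 1.28. By base pairs, the overlap of 2 libraries (Jaccard index) ranged from 0.693 to 0.710 over the 6 pairs. The young pair had the lowest value and a pair of different ages, young 2 and aged 2, the highest, so that the pairs of one age did not stand apart. Their mean was 0.00113 higher than that of the pairs of different ages, a difference that became -0.0087 without aged 1 and -0.0047 without aged 2.

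**Figure D1:**
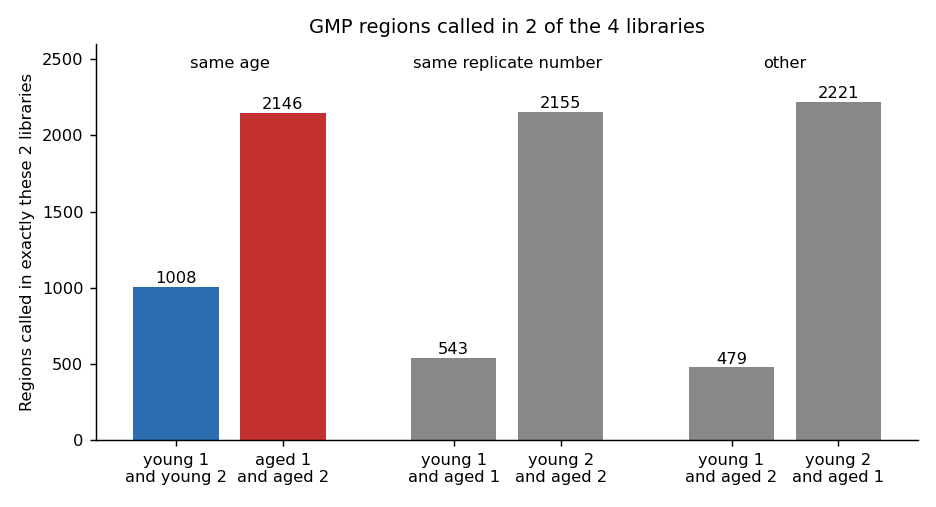
Number of GMP regions (y axis) called in exactly the 2 libraries named under each bar and in neither of the other two, for the 3 ways of pairing 4 libraries. The aged pair (2146) lies near the other pairs without young 1 (2155 and 2221), and the young pair (1008) lies above the other pairs that hold young 1 (543 and 479).

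Regions called by age were small and lay away from promoters. Regions whose midpoint lay between 1000 bp before and 100 bp after a TSS were counted as promoters. Promoters made up 7.46% (160) of aged-only and 6.05% (61) of young-only regions, against 6.54% of mixed, 22.5% of shared and 16.2% of all GMP regions. Together 221 of the 3154 regions called by age were promoters, 7.01% (95% exact binomial interval 6.14 to 7.95, which covers counting error only). Introns held 40.7% of aged-only and 43.3% of young-only regions, and intergenic DNA held 46.4% and 44.8%. The median width was 190 bp in both sets, 186 bp in mixed and 325 bp in shared regions. In width and position, regions called by age therefore resembled mixed regions. Their summits were low: the median was 12 fragments in both aged libraries for aged-only regions, and 13 and 14 fragments in the young libraries for young-only regions, against 32 to 38 fragments for shared regions. The lowest summits held 6 or 7 fragments, just inside the calling limit, and a count of 12 has a 95% Poisson interval of 6.2 to 21, so a summit of this height can pass the limit in one library and miss it in the next by counting error alone. The absence of a call is therefore not an absence of accessibility.

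The aged-only regions that ranked highest within both aged libraries did not include any gene of the myeloid lists described below. In an intron of Cntnap5b, a cell adhesion gene of neurons, fold enrichment was 22.5 in aged 1 and 16.6 in aged 2, from 37 and 28 fragments, with no call in either young library or in any library of another fraction. An intergenic region 360 kb upstream of Nr3c2, the mineralocorticoid receptor, reached 16.4 and 23.0 and was called in 2 aged libraries of other fractions. Regions in introns of Opcml (15.6 and 16.4), a neural adhesion molecule, and of Arhgef38 (15.9 and 12.6), an exchange factor for small GTPases, and a region nearest to Gm10295 (12.8 and 15.1) were likewise called in none of the 32 other libraries. One in an intron of Slc7a11, the cystine-glutamate exchanger, reached 13.8 and 13 and was called in 2 aged libraries elsewhere. In contrast, regions in an intron of Astn2 and near Pou3f3, which encode neural proteins, and near N6amt1 reached 12 to 15.8 in aged GMPs and were called in 12 young and 12 aged, 12 and 12, and 10 and 13 libraries of the other fractions. The remaining one of the 10, 17.3 kb upstream of the pacemaker channel gene Hcn4, reached 15.9 and 14.4 and was called in 2 young and 1 aged library elsewhere. These 10 regions thus include some called nowhere else in the series and some called in stem and multipotent cells of both ages.

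Young-only regions with the highest ranks included introns of Hif1a and Csf2rb. A region in an intron of Hif1a, the transcription factor of the hypoxia response, reached 17.9 in young 1 and 17.5 in young 2, from 41 and 48 fragments, and was called in no other library of the series. A region in an intron of Csf2rb reached 12 and 11.4, from 24 and 21 fragments, and was likewise called nowhere else. Csf2rb encodes the beta chain shared by the receptors for GM-CSF, IL-3 and IL-5, which signal through STAT factors, and the letters of a STAT site begin at the summit of this region. Regions in introns of 4930402H24Rik (13.8 and 12.1), of Atp13a3 (12 and 13.3), a P-type ATPase, and of Tanc2 (10.8 and 10.3) were also called in no other library. A region in an intron of Tbc1d2b, a regulator of Rab GTPases, reached 12.4 and 10.9 with the letters of an AP-1 site. A region nearest to D3Ertd751e (14.4 and 16.9) was called in more young than aged libraries elsewhere, 11 against 2. A region 9.04 kb from Tbx1 (11.5 and 10.8) was called in 12 libraries of each age, and one near Tmem131 (12.6 and 15.7) in 1 of each. None of these 10 regions was a promoter. AP-1 letters stood within 100 bp of the summit in 3 of them (Hif1a, Tbc1d2b and 4930402H24Rik) and in 0 of the 10 aged-only regions, and GATA letters in 3 of the 10 aged-only regions (Cntnap5b, Nr3c2 and Pou3f3) and in 1 of the young-only ones (Atp13a3).

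The letters of AP-1 and GATA sites were spread unequally over the regions called by age. Within 100 bp of the summit, TGANTCA was found in 20.0% of young-only regions (201 of 1006 with a sequence) and in 7.62% of aged-only regions (163 of 2140), against 10.2% of all GMP regions. The other 4 pairs of libraries gave 9.41% (young 1 and aged 1), 9.73% (young 2 and aged 2), 11.3% (young 1 and aged 2) and 8.03% (young 2 and aged 1). The young pair therefore stood above all other pairs, and the aged pair was the lowest. AGATAA was found in 13.4% of aged-only regions (287) and in 7.65% of young-only regions (77), against 7.5% of all GMP regions and between 6.92% and 10.9% in the other pairs, so that here the aged pair was the highest. Regions called in a single library showed the same order: AP-1 letters stood in 12.6% (young 1), 12.3% (young 2), 7.66% (aged 1) and 8.33% (aged 2) of them, and GATA letters in 8.26%, 6.56%, 9.10% and 10.4%. With promoters left out, AP-1 letters were in 21.1% of young-only and 8.03% of aged-only regions, and GATA letters in 7.94% and 13.8%. RUNX letters were found in 28.6% of aged-only and 23.1% of young-only regions, and C/EBP letters in 13% and 17.3%, against 25.5% and 16.3% of all regions; the other pairs reached from 23.3% to 29.5% for RUNX and from 13.2% to 18.2% for C/EBP, so that both ages lay within or just outside the range of the other pairs. Against mixed regions the excess was 10.8 percentage points for AP-1 at young-only and 4.98 points for GATA at aged-only regions. Without young 1, young 2 or aged 1 the AP-1 excess was 2.78, 3.29 and 6.31 points, and without aged 2 it was 8.87. The GATA excess was 5.18 points without young 1, and 3.20, 2.43 and 1.52 points without young 2, aged 1 or aged 2. AP-1 and GATA letters were singled out from the 11 motifs searched after the sets had been seen. Shares at aged-only, young-only and all GMP regions were 1.78%, 1.09% and 1.13% for CTCF and 1.07%, 0.596% and 1.10% for E2F. They were 0.467%, 0.199% and 0.389% for PBX, and 0.421%, 0.596% and 0.461% for RFX. PU.1 letters gave 9.67%, 8.55% and 10.4%, IRF letters 8.50%, 8.95% and 8.13%, and STAT letters 5.05%, 6.16% and 5.36%. These are descriptions of sequence, with no test, since regions are not replicates, and a match does not show that a factor binds.

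**Figure D2:**
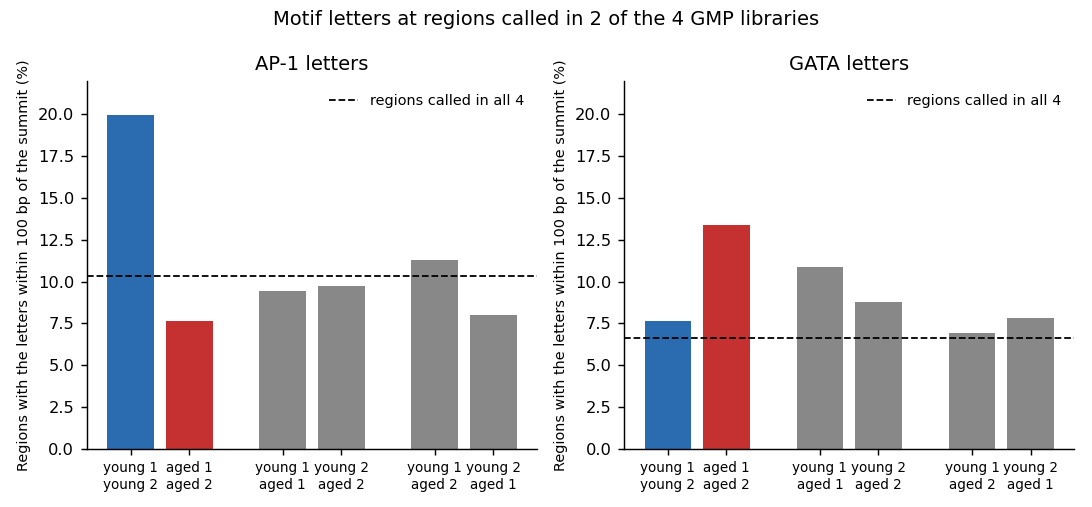
Share of regions (y axis, percent) with AP-1 letters (left) or GATA letters (right) within 100 bp of the summit, for the regions called in exactly the 2 libraries named under each bar. The dashed line gives the shared regions, 10.4% for AP-1 and 6.64% for GATA. The young pair is highest for AP-1 (20.0%) and the aged pair is highest for GATA (13.4%).

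Regions that were open in all 4 libraries moved little with age. Fold enrichments of the 44702 shared regions, set to the same distribution in each library so that only ranks counted, correlated between libraries with a Spearman coefficient of 0.88 in both pairs of one age and of 0.866 to 0.878 in the 4 pairs of different ages, so that both same-age pairs lay above the others by a small margin. The difference aged minus young on the log2 scale ranged from -1.51 to 1.5, with a median size of 0.14 and a median standard error of 0.23. Both aged libraries lay above both young ones at 7717 regions, 17.3% of those tested, and below them at 7785, 17.4%. With limma, 0.0% of shared regions were higher and 0.0% lower in aged GMPs at a Benjamini-Hochberg adjusted p under 0.05, that is 0 regions in each direction. At an unadjusted p under 0.05 there were 1421 higher and 1437 lower regions, 3.18% and 3.21% of those tested. On log2 fragments at the summit in place of fold enrichment, the adjusted test called 5 higher and 4 lower. With the replicate number as a block in the model, it called 48 higher and 46 lower of the 44702 shared regions. On fold enrichment, leaving out aged 1 gave 4 higher and 23 lower regions, and leaving out aged 2 gave 0 higher and 3 lower, where the lone aged library was taken to vary like the young ones. More than 2-fold differences were seen at 25 regions in the direction of aged and 30 in the direction of young GMPs.

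The shared regions with the smallest limma p are described without a call. The region at the TSS of Ces1d, a carboxylesterase, had fold enrichments of 7.79 and 11.5 in young against 24.1 and 26.3 in aged libraries, from 12 and 18 against 48 and 59 fragments. The difference was 1.38 ± 0.20 (log2, SE; adjusted p of 0.0541 by limma, n = 2 each), and no library of another fraction had a call there. An intron of Uhrf1bp1l gave 5.39 and 5.44 against 15.6 and 15.5, a difference of 1.5 ± 0.25 (adjusted p of 0.112 by limma). The promoter of Neurod4, a neuronal transcription factor, gave 12.6 and 12.7 against 25.5 and 22.7, and an intron of Pik3c2g, a lipid kinase, gave 10.9 and 11.3 against 23.5 and 21.4 (both with an adjusted p of 0.179 by limma). In the other direction, the largest difference was at an intergenic region 9.27 kb upstream of Ifnar1, a chain of the receptor for type I interferons. It had fold enrichments of 17.1 and 16.5 in young against 5.68 and 6.30 in aged libraries, from 43 and 50 against 10 and 10 fragments, a difference of -1.51 ± 0.24 (adjusted p of 0.112 by limma), and its printed sequence holds the letters of an AP-1 site. The other 9 lower regions follow in the order of their p. A region 48.5 kb from Socs6, an inhibitor of cytokine signalling, gave 20.7 and 21.4 against 11 and 7.81, and an intron of Ahcyl2, an adenosylhomocysteinase-like protein, 18 and 26.3 against 8.57 and 12. Near Peli1, a ubiquitin ligase, the values were 14.4 and 17.5 against 6.73 and 7.21, and in an exon of Cyp4f16, a cytochrome P450, 18.8 and 15.3 against 7.95 and 7.21. A region 25.6 kb upstream of Arhgap28 gave 14.7 and 20.8 against 9.18 and 6.61, and an intron of Copg2, a coat protein of transport vesicles, 16.8 and 25.1 against 11 and 10.2. A region 26.1 kb upstream of Adar, an RNA-editing enzyme, gave 8.99 and 12.3 against 4.28 and 4.81. The values were 17.7 and 13.7 against 6.73 and 7.21 near Pcmtd1, and 17.9 and 24.4 against 13 and 9.98 near Peli2, another ubiquitin ligase. In each of these regions both aged values lay below both young ones. AP-1 letters stood within 100 bp of the summit in 4 of the 10 lower regions (near Ifnar1, Socs6, Arhgap28 and Pcmtd1) and in 1 of the 10 higher ones (near Mettl15). Without a replicate block, none of these 20 regions passed the adjusted threshold on fold enrichment over all 4 libraries and all shared regions. With the replicate number as a block all 20 passed, with an adjusted p by limma from 6.34e-08 for Ces1d to 0.0057 for Pcmtd1. Further settings, all without the block, changed the call for some of them. On summit fragments the adjusted p by limma was 0.0252 for Ces1d, 0.00645 for Pik3c2g and 0.0102 for Ifnar1. Among regions with a mean fold enrichment of at least 5 it was 0.0468 for Ces1d. Without aged 1, the adjusted p by limma was 0.00457 for Ces1d, 0.0421 for Uhrf1bp1l and 0.00924 for Mettl15 among the higher regions. Among the lower ones it was then 0.0148 for Ifnar1, 0.00119 for Socs6, 0.0497 for Cyp4f16, 0.0105 for Arhgap28, 0.0455 for Copg2 and 0.0211 for Peli2. Without aged 2, the threshold was passed near Ifnar1 (adjusted p of 0.00975 by limma) and Ahcyl2 (0.00384), and without young 1 or young 2 by none of the 20. Since the 20 were ranked by the test, the gap between the ages is part of how they were chosen.

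**Figure D3:**
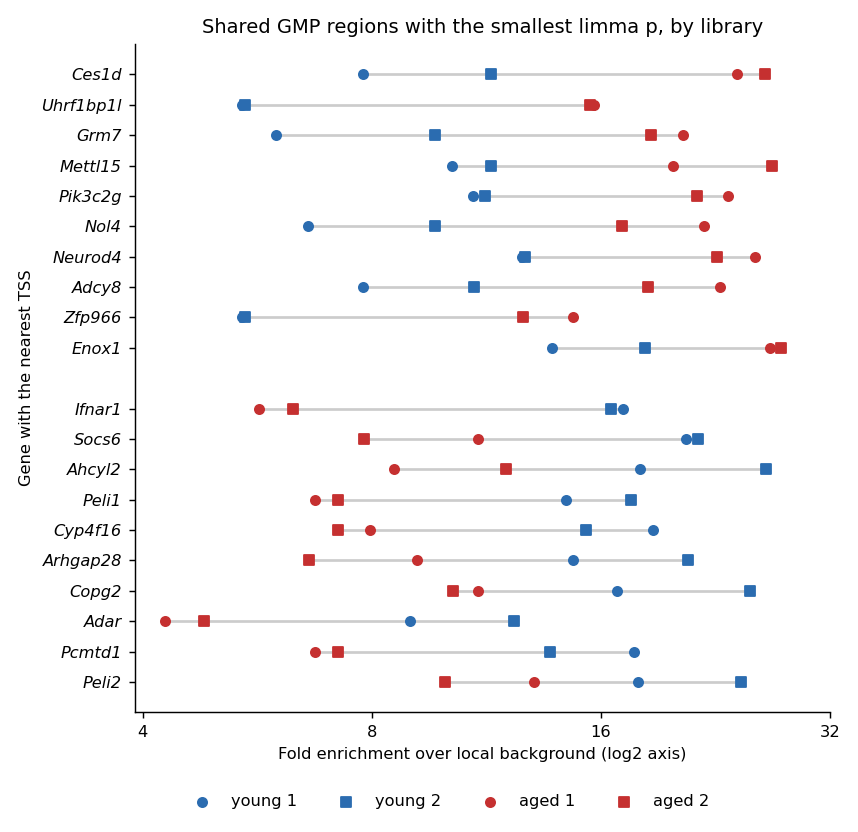
Fold enrichment over local background (x axis, log2 scale) in each of the 4 GMP libraries at the 10 shared regions with the smallest limma p in each direction, named by the gene with the nearest TSS (y axis). At the upper 10 both aged libraries (red) lie above both young ones (blue), with 7.79 and 11.5 against 24.1 and 26.3 at Ces1d, and at the lower 10 the order is the opposite.

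The letters of several motifs were unequally spread over the shared regions as well, and of the 11 searched the median lay furthest from 0 for AP-1. The 4622 shared regions with AP-1 letters had a median difference of -0.06 (log2, aged minus young) against 0.00 over all shared regions, and 38.4% of them were higher in aged GMPs against 50.1% of all. At an unadjusted p under 0.05, 111 of them were higher and 291 lower, so that AP-1 letters stood in 20.3% of all lower and 8.02% of all higher regions at that limit, against 10.4% of shared regions. The median deviation of these regions from their mean over the 4 libraries was 0.04 in both young libraries, -0.05 in aged 1 and -0.0046 in aged 2, so that aged 1 deviated more than aged 2. For the 2964 shared regions with GATA letters the median was 0.02, 53.4% were higher, and 141 were higher against 92 lower at that limit. Regions with C/EBP letters (7638) had a median of -0.03, with 219 higher and 338 lower, and those with RUNX letters (11501) a median of 0.00, with 429 higher and 387 lower. Rarer letters had medians further above 0 than GATA: AGGTGGCAG for CTCF (373 regions, 0.835% of those shared) 0.06, with 57.9% higher and 24 against 13 at that limit, GTTGCCATG for RFX (218, 0.488%) 0.05, with 57.8% higher and 8 against 6, and TTGGCGC for E2F (598, 1.34%) 0.03, with 57.4% higher and 21 against 7. Regions with GAAANNGAA for IRF factors (3533, 7.91%) had a median of -0.02 with 108 higher and 149 lower, PU.1 letters (4686) -0.02 with 142 and 186, STAT letters (2386) -0.0041 with 62 and 96, and TGATTGAT for PBX (162, 0.363%) -0.03 with 6 and 7. By annotation, the median was 0.03 at promoters, 0.02 at exons, -0.02 at introns and -0.01 at intergenic regions.

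Over whole libraries the same letters differed by about 1 percentage point or less. Of the summits over 1 kb from a TSS, 12.9% (young 1), 12.5% (young 2), 11.4% (aged 1) and 11.9% (aged 2) held AP-1 letters, a difference of -1.06 points. Both aged libraries lay below both young ones. GATA letters were in 8.22% and 8.15% of such summits in young and 8.73% and 8.85% in aged GMPs, a difference of 0.60 points, and both aged libraries lay above both young ones. C/EBP letters, which were more frequent in GMPs than in any other fraction, gave 20.4% and 19.3% against 19.3% and 19.4%, and RUNX letters 30.8% and 29.7% against 30.5% and 30.7%, with overlapping ranges. An exact permutation of 2 libraries against 2 cannot give a p below 0.333, so these differences in GMPs were not tested further.

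Genes of neutrophils and their granules held 6 young-only and 0 aged-only regions, where aged-only regions make up 2.85% of all GMP regions, so that few were to be found in lists of this size. Regions were listed under the gene whose TSS lay closest, although an enhancer can act on another gene. Late neutrophil genes (10 genes, 34 regions) had 4 young-only and 0 aged-only regions, that is 11.8% young-only against 1.34% of all GMP regions. Of these, 3 belonged to Ltf, the iron-binding lactoferrin of secondary granules: 9.32 kb upstream (5.99 and 10.3), 14.6 kb downstream of the TSS (7.09 and 6.44) and 18.3 kb downstream (4.27 and 6.79). The fourth lay 1.77 kb upstream of S100a8 (8.0 and 5.48), a subunit of calprotectin. The promoter of S100a8 itself was shared and read 18.3 and 17.4 in young against 16 and 16 in aged libraries. The shared promoter of Lyz2 was higher in both aged libraries (14.8 and 16.4 against 18.2 and 20.2, adjusted p of 0.877 by limma). At an unadjusted p under 0.05, 1 shared region of the list was higher and 2 were lower. The higher one lay 13.3 kb downstream of the TSS of S100a9 (6.18 and 6.69 against 10.7 and 8.74). The lower ones lay 8.75 kb downstream of that TSS and 5.41 kb downstream of that of Cebpe. The shared regions of this list had a median difference of -0.07. Granule genes (6 genes, 41 regions) had 2 young-only regions (4.88%), 27.5 kb upstream of Ctsc and 20.0 kb downstream of the TSS of Serpinb1a, 0 aged-only regions and a median of -0.09. Growth factor receptors (9 genes, 72 regions) had 4 young-only regions (5.56%), in an intron of Csf2rb, in an intron of Flt3 and 10.3 kb upstream of it, and near Il3ra, and 2 aged-only ones (2.78%, against 2.85% of all GMP regions). Flt3 is the receptor for FLT3 ligand on early progenitors, and the upstream region (7.19 and 8.47) holds the letters of an AP-1 and a PU.1 site that overlap by 1 base in its printed sequence. The aged-only regions lay 114 kb and 109 kb upstream of Kit, the stem cell factor receptor (4.89 and 6.01, and 10.7 and 11.3). They were called in 10 and 14 libraries of other fractions, whereas the young-only ones of this list were called in 0. The region 109 kb upstream of Kit holds AP-1 letters, and the one 114 kb upstream holds GATA letters. The TSS regions of Kit (7.54 and 6.89 against 8.07 and 6.76), Flt3, Csf2rb, Csf3r, Csf1r, Il3ra and Il6ra were shared with overlapping values. That of Csf2rb2 was higher in both aged libraries (13.7 and 15.4 against 17.1 and 16.7) and that of Csf2ra, the alpha chain of the GM-CSF receptor, lower in both (12.1 and 13.2 against 10.6 and 11.2), with adjusted p of 0.956 and 0.941 by limma. The shared region of the list with the smallest p, 27.1 kb downstream of the TSS of Csf2rb2, read 12 and 14.1 in young against 18.8 and 20.9 in aged libraries (adjusted p of 0.57 by limma). Counts over a few genes rest on single regions, and Csf2rb and Csf2rb2 are near-identical neighbours whose reads an aligner can split.

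Transcription factors of the lineage and monocyte genes had regions of both kinds. The 10 factors of granulocytes and macrophages (200 regions) had 5 aged-only and 1 young-only region, 2.50% and 0.50% against 2.85% and 1.34% of all GMP regions, with a median of -0.03 over their shared regions, of which 4 were higher and 4 lower at an unadjusted p under 0.05 (3.18% and 3.21% over all shared regions). Aged-only regions lay 11.4 kb upstream of Spi1, which encodes PU.1 (4.14 and 4.68), 45.4 kb upstream of Myb (8.89 and 10.0) and at 3 sites far upstream of Zeb2, from 531 kb to 1185 kb away. The region upstream of Myb holds the letters of an AP-1 site. The young-only one lay 208 kb upstream of Runx1. Monocyte and dendritic genes (10 genes, 142 regions) had 3 regions of each kind (2.11%). Of these, the one at the promoter of Cx3cr1, the fractalkine receptor, was aged-only (6.01 and 7.2) beside a shared promoter region, and one at the promoter of F13a1, coagulation factor XIII, was young-only (4.66 and 6.23), also beside a shared promoter region (8.41 and 6.23 against 7.95 and 7.97). Promoters of Irf8 and Klf4, which direct monocyte fate, were shared (12.8 and 12.2 against 18.2 and 11.8 for Irf8, and 10.1 and 14.1 against 13.6 and 12.9 for Klf4).

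Stem cell and other-lineage genes were measured as a check of the gate. Stem cell genes (12 genes, 66 regions) had 3 aged-only regions (4.55%, against 2.85% of all GMP regions), in introns of Hlf and Mecom and 137 kb upstream of Meis1, and 1 young-only region (1.52% against 1.34%), 355 kb upstream of Meis1. Their 32 shared regions had the second highest median of the 15 lists, 0.09. At an unadjusted p under 0.05, 3 of the 32 were higher and 1 lower, beside 3.18% and 3.21% of all shared regions. Taking for each gene the region nearest to its TSS, where it lay within 1 kb, 6 (young 1), 9 (young 2), 7 (aged 1) and 8 (aged 2) of the 12 stem cell genes had a call, with a summed fold enrichment of 59.8 and 80.5 in young and 86.7 and 77.8 in aged libraries, which overlapped. Megakaryocyte and erythroid genes (14 of 15 found in the annotation, 61 regions) had 1 aged-only region, near Car2, and a median of 0.02. At the same limit, 3 of their 40 shared regions were higher and 1 lower, beside 3.18% and 3.21% of all shared regions. By the nearest region within 1 kb of the TSS, 7, 9, 8 and 9 genes had a call, and the summed fold enrichment was 75.8 and 79.5 in young against 98.4 and 89.4 in aged libraries, with both aged sums above both young ones. Over all 13584 annotated genes with a region within 1 kb of the TSS, 88.2% and 94.2% were called in young and 93.0% and 94.4% in aged libraries, and the mean fold enrichment, with a library without a call counted as 0, was 13.4 and 14.4 in young against 15.1 and 14.5 in aged libraries, so that both aged means lay above both young ones there too. At Epor, the erythropoietin receptor, an intronic region read 10.2 and 10.7 against 19.2 and 13.1 (adjusted p of 0.71 by limma). Of the 9 genes with a region that close, 7 were called in all 4 GMP libraries: Pf4, platelet factor 4 (9.24 and 7.87 against 14.8 and 7.3), Klf1, the erythroid factor (13.8 and 12 against 12.6 and 15.3), Gfi1b, Tal1, Zfpm1, Car2 and Epor. The GMP libraries thus held calls near the TSS of defining genes of these lineages at both ages. Of the other defining markers, Gata1 had no region within 1 kb of its TSS, the TSS of Gata2 was called in young 2 and aged 2, and that of Itga2b, an integrin chain of megakaryocytes, in young 2 and both aged libraries. A shared region 4.09 kb upstream of Gata2 was higher in both aged libraries (9.04 and 8.63 against 13.2 and 14, with an adjusted p of 0.71 by limma). Of the stem cell markers, Slamf1 had no region within 1 kb of the TSS, and Procr was called in both young libraries and in aged 2. Basophil, mast cell and eosinophil genes (10 genes, 21 regions) had no region called by age and a median of 0.11, with 2 genes called in each library at the region nearest to the TSS and summed levels of 26.4 and 24.1 in young against 24.0 and 26.3 in aged libraries. Their defining markers Cpa3, Ms4a2, Fcer1a and Epx had no region within 1 kb of the TSS, and the promoter region of Mcpt8 was shared. Their median rested on 13 regions, and the one with the smallest p, 1.47 kb upstream of Il5ra, was lower in aged GMPs (17.6 and 14.8 against 7.34 and 10.2). The other of their regions under an unadjusted p of 0.05, a second promoter region of Hdc (histidine decarboxylase) 0.767 kb upstream of the TSS, was higher (6.22 and 9.42 against 9.64 and 14.6, with an adjusted p of 0.745 by limma). The part of other cell types in the GATA letters of aged-only regions was not tested.

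Lymphoid genes held the most aged-only regions of the 15 lists, 7 of 82 (8.54% against 2.85% of all GMP regions), beside 2 young-only ones. The nearest TSS was that of Bcl11a (3 aged-only and 2 young-only), Gata3 (2 aged-only), Ebf1 or Tcf7, transcription factors of B and T cells. No lymphoid promoter was called by age. The aged-only regions of Bcl11a lay 21.9 kb from the TSS in an intron, and 160 kb and 173 kb away in intergenic DNA. Those of Gata3 lay 47.1 kb and 694 kb away and that of Ebf1 391 kb away, all intergenic. That of Tcf7 lay 20.4 kb away in an intron. The aged-only region in an intron of Tcf7 holds the letters of an AP-1 site. Only 5 of the 12 genes had any call within 1 kb of the TSS, and the region nearest to Cd3e, a chain of the T cell receptor complex, lay 22802 bp away. The promoter region of Tcf7 read 10.9 and 13.5 in young against 5.51 and 10.0 in aged libraries, a difference of -0.73 ± 0.28 (SE, n = 2 each, adjusted p of 0.707 by limma). The shared lymphoid region with the smallest p, 1203 kb downstream of the TSS of Gata3, was higher (6.59 and 9.67 against 13.4 and 14.3, with an adjusted p of 0.574 by limma). Another Tcf7 region, 22.5 kb upstream, had a higher mean in aged libraries with overlapping values (7.79 and 15.2 against 14.7 and 19.8, adjusted p of 0.717 by limma). Of the 43 shared lymphoid regions, 3 were higher and 2 lower at an unadjusted p under 0.05, beside 3.18% and 3.21% of all shared regions, and the median was -0.02.

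Genes linked to ageing of stem cells, to interferon, inflammation, antigen presentation and the cell cycle gave few calls. The list linked to stem cell ageing came from earlier work, the series' own study included, and is no independent evidence for a direction. Of its 13 genes (111 regions), 4 aged-only regions (3.6%) and 1 young-only region (0.90%) were found, near the 2.85% and 1.34% of all GMP regions. The aged-only region at the promoter of Aldh1a1, a retinaldehyde dehydrogenase, read 7.95 and 4.81 from 12 and 7 fragments and was called in 8 young and 13 aged libraries of other fractions, and that in an exon of Itgb3, 0.111 kb from its TSS, which encodes an integrin chain of platelets, read 3.39 and 4.58 and was called in 7 and 8. By the nearest region within 1 kb of the TSS, 7 of the 13 genes had a call in each young library and 10 in each aged library, and the summed fold enrichment was 90.1 and 79.8 in young against 111 and 108 in aged libraries. Both aged values of each measure lay above both young ones, as did the mean fold enrichment over all genes with such a region (13.4 and 14.4 against 15.1 and 14.5). The share of all such genes with a call overlapped between the ages, at 88.2% and 94.2% in young and 93.0% and 94.4% in aged libraries. The aged-only regions of Aldh1a1 and Itgb3 are part of the counts for this list. The promoter of Selp (P-selectin) was called in young 1 and both aged libraries, while Vwf had no region within 1 kb of its TSS. Interferon genes (14 genes, 50 regions) had 2 aged-only (4.0%, against 2.85% of all GMP regions) and 0 young-only regions, in introns of Ifi44 and of Bace2 (nearest TSS Mx1), and a median of -0.05. The aged-only region in Bace2 holds the letters of an AP-1 site. The promoter of Mx1, an antiviral GTPase, read 18.8 and 23.4 in young against 12.7 and 15.7 in aged libraries, -0.62 ± 0.18 (SE, n = 2 each, adjusted p of 0.523 by limma), whereas those of Stat2, Irf1 and Irf9 differed by -0.08 to 0.16 on the log2 scale. Inflammatory genes (13 genes, 150 regions) had 1 aged-only (0.667%) and 2 young-only regions (1.33%) and a median of -0.01. One young-only region lay 32.2 kb upstream of Tnfaip3, the NF-κB inhibitor A20 (9.93 and 10.9, from 27 and 33 fragments), with the letters of an AP-1 site, and was called in 7 young and 5 aged libraries elsewhere. Antigen presentation genes (9 genes, 37 regions) had 2 aged-only regions (5.41%), near H2-D1 and H2-Eb1, and a median of -0.03, and the genes of this cluster resemble each other closely enough for reads to be split. Cell cycle genes (12 genes, 130 regions) had 3 regions of each kind (2.31%) and a median of -0.01. Among them, a young-only region in an intron of Ccnd3, the D-type cyclin of blood cells, read 5.77 and 5.17 and holds the letters of an AP-1 and a C/EBP site. In none of the 15 lists did a shared region pass the adjusted threshold in the model without a replicate block.

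Aged-only regions of GMPs were often open in less mature cells, and young-only regions seldom were. Of the aged-only regions, 39.5% (847) were called in none of the 32 libraries of other fractions, against 63.4% (639) of young-only, 52.8% of mixed and 20.7% of shared regions. A single library of HSCs or MPPs called 20.2% to 33.4% of aged-only regions, 9.0% to 19.2% of mixed and 5.16% to 11.8% of young-only regions. In each of these 24 libraries, young and aged alike, aged-only regions were called more often than mixed regions and young-only regions less often. In young HSCs, for instance, the shares were 24.6 ± 4.81% of aged-only, 14.1 ± 3.65% of mixed and 8.48 ± 2.16% of young-only regions (SD, n = 4). In CLPs the sets lay closer, at 15.1 ± 2.01%, 14.5 ± 2.36% and 12.4 ± 2.88% in young libraries (SD, n = 2), and in MEPs, whose libraries held the fewest peaks, no set exceeded 2.84% in any library. The 24 libraries share the GMP regions under study and are no independent replicates of this order.

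**Figure D4:**
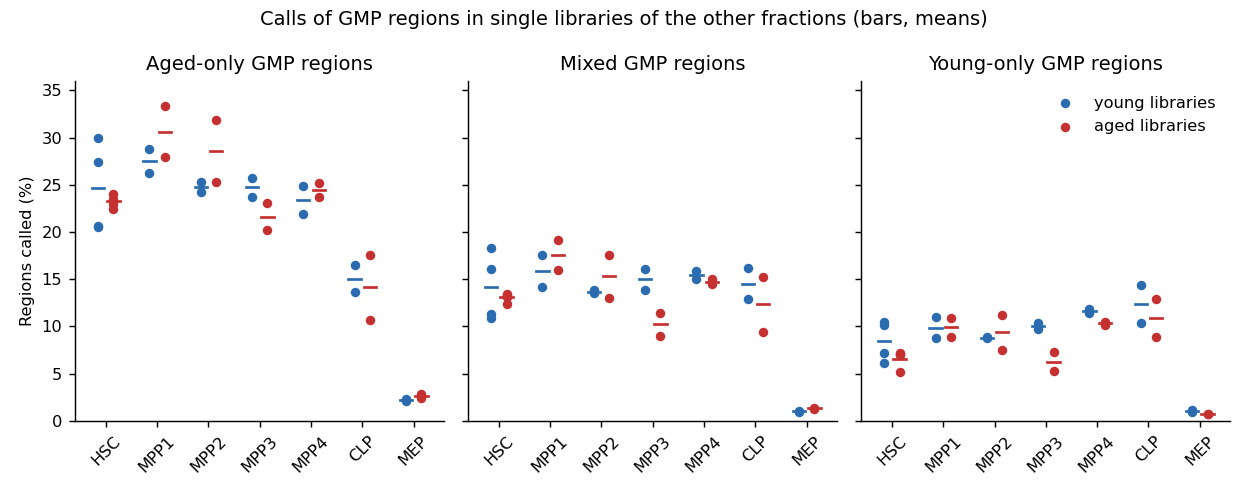
Share of aged-only (left), mixed (middle) and young-only (right) GMP regions (y axis, percent) called in each library of the 7 other fractions (x axis), with points for single libraries and bars for the mean of a fraction and age (n = 4 for HSCs, n = 2 elsewhere). In HSCs and MPP1 to MPP4 the shares are 20.2% to 33.4% for aged-only and 5.16% to 11.8% for young-only regions, in young (blue) and aged (red) libraries alike.

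Whether regions called by age in GMPs followed age elsewhere was tested in the 32 libraries that had not been used to choose them. The share of aged-only regions called, less that of mixed regions, was on average 1.16 percentage points higher in aged than in young libraries over the 7 other fractions. The difference was positive in 6 of 7 fractions: 2.19 points in MPP2, 1.75 in MPP4, 1.66 in MPP3, 1.44 in MPP1, 1.31 in CLPs and 0.11 in MEPs, with HSCs at -0.33 (exact permutation of ages within fractions, two-sided p of 0.00175, or 0.00702 adjusted over the 4 such tests made). The result depended on the subtraction and on the GMP libraries. Without subtracting mixed regions it was 0.43 points (exact permutation p of 0.662). Without young 2, aged 1 or aged 2 among the GMP libraries it was 0.55, 0.59 and 0.55 points (exact permutation p of 0.0939, 0.0519 and 0.0862), and without young 1 it was 0.99 points (exact permutation p of 0.00175). Leaving out any one of the 32 other libraries gave 0.996 to 1.32 points. Young-only regions differed by -0.44 points, negative in 5 of 7 fractions (exact permutation p of 0.180). Fractions of one age may come from the same pooled marrow, in which case these p-values are too small.

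The AP-1 and GATA letters were compared in the other fractions in the same way. The share of summits over 1 kb from a TSS with AP-1 letters was 0.80 percentage points lower in aged libraries over the 7 fractions, lower in 6 of them (exact permutation p of 0.0499, or 0.0998 adjusted over the 4 tests, which misses the threshold). In MPP4 the means were 18.8 ± 0.40% in young and 16 ± 0.15% in aged libraries (SD, n = 2 each), with no overlap. In MEPs the order was the opposite, at 6.30 ± 0.35% and 6.80 ± 0.25%. HSCs gave 15.6 ± 1.74% and 14.5 ± 3.37% (SD, n = 4 each), with aged HSC libraries 3 and 4 at 11.9% and 11.4% apart from aged HSC libraries 1 and 2 at 18.1% and 16.6%. Without any one of 21 of the 32 libraries the exact permutation p rose to between 0.0513 and 0.105. With HSC libraries 1 and 2 alone in place of all 4, the difference was -0.43 points (exact permutation p of 0.230). For GATA letters the difference over the other fractions was 0.19 points, with the sign of GMPs in 3 of 7 fractions (exact permutation p of 0.165). MPP2 stood at 15.3 ± 0.07% against 16.4 ± 0.15%, and MPP3 at 12.2 ± 0.11% against 13 ± 0.50% (SD, n = 2 each). The lower share of AP-1 letters and the higher share of GATA letters in aged GMPs thus had counterparts in some fractions and not in others.

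**Figure D5:**
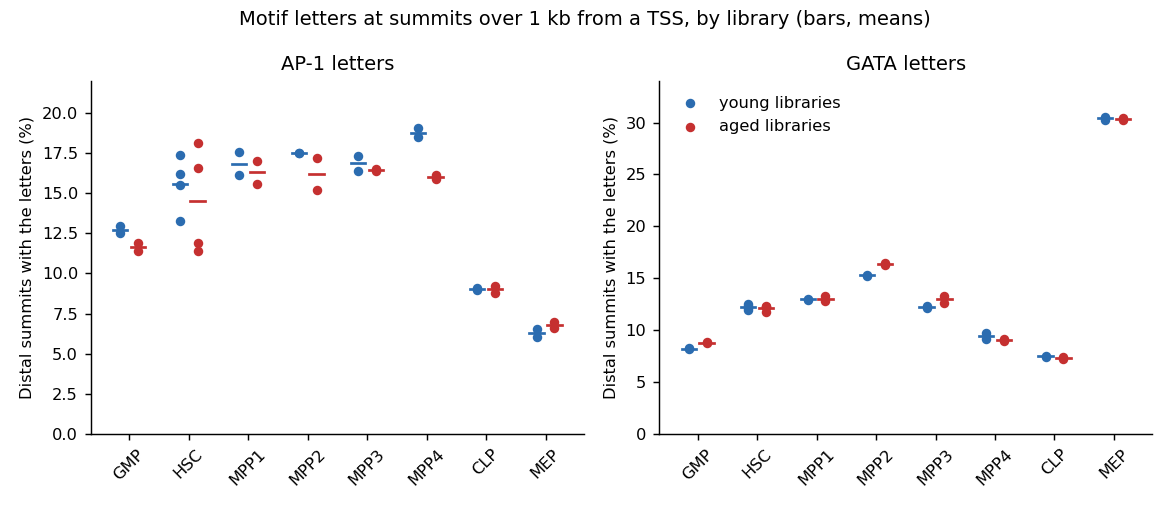
Share of summits over 1 kb from a TSS (y axis, percent) with AP-1 letters (left) or GATA letters (right) within 100 bp, in each library of the 8 fractions (x axis), with points for single libraries and bars for the mean of an age. In GMPs the 2 aged libraries (red) lie below the 2 young ones (blue) for AP-1 letters (11.4% and 11.9% against 12.9% and 12.5%) and above them for GATA letters (8.73% and 8.85% against 8.22% and 8.15%).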

How the data were processed

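The authors aligned single reads of 60 bp to mm10 with Bowtie2, subsampled the alignments with SAMtools to like numbers (a share of 0.249, 0.494, 0.265 and 0.453 kept in young 1, young 2, aged 1 and aged 2) and called peaks per library with MACS2 2.2.6 at a q-value under 0.001, without pooling replicates. The deposited columns hold, for every summit, the caller's fold enrichment against its local background, -log10 p and -log10 q values, a score of 10 times -log10 q, and its position as an offset from the peak start. Fold enrichment and -log10 p gave back the fragments at each summit, whole within 0.05 in 99.998% to 100% of peaks. Peak counts rest on fixed depth, and intervals cover counting error only.

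Members, lists and tests were chosen with earlier results of these data known. Peaks overlapping by 1 bp or more were merged with Python 3.11.15 (pandas 2.3.3, numpy 2.4.6, scipy 1.17.1). Shared regions were tested on quantile-normalised log2 fold enrichment, the highest summit per region, with limma 3.58.1 in R 4.3.3 (eBayes with trend, Benjamini-Hochberg adjustment over all 44702 shared regions, two-sided). Genes came from GENCODE vM21 (GRCm38) and sequences from the same build (samtools 1.23.1). Motifs were searched as fixed letters within 100 bp of the summit. Named were the 10 regions of each age with the highest lower rank in its 2 libraries, the 10 shared regions with the smallest p in each direction, and regions of listed genes that were called by age or mark the cell type. Regions of listed genes that were neither were named after their values were seen. They included regions near Il5ra, Hdc, Csf2rb2, Gata2, Gata3, Epor, Mx1, Tcf7, Lyz2, S100a9 and Cebpe. A few genes that these rules name are not reported here. Ages were permuted within fractions in exact two-sided tests (3265920 labellings). Scripts were tested on simulated data. As marrow was pooled, p-values measure only the spread between libraries. Alternatives were other peak limits, overlaps, region sets, peak numbers and measures, a replicate block and leaving out libraries.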

Additional observations from a re-analysis of the deposited data

Results flagged for a closer look

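Of young-only GMP regions, aged HSC 3 called 5.16%, whereas the other 3 aged HSC libraries called 6.94% to 7.14%. The gap to the nearest of them took up most of the range of the group, and chance alone marks about 1 in 20 groups in this way. Several shares of both young and aged HSC libraries were screened, so a flag of this kind can arise by chance. The share of distal summits with GATA letters was lower in aged libraries in 4 of the 7 other fractions, in 2 of them without overlap between the ages, whereas in GMPs both aged libraries lay above both young ones. The difference, aged minus young, was -0.35 percentage points in MPP4 and -0.15 points in CLPs against 0.60 points in GMPs, fractions in which the libraries of the 2 ages did not overlap. The share with AP-1 letters was 0.49 points higher in aged than in young MEPs and 1.06 points lower in aged than in young GMPs (a difference of -1.06), again without overlap between the ages. These 3 contrasts between fractions were not tested.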

How the results depend on the processing

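With peaks of -log10 q of at least 10 only, 1387 regions were aged-only and 8.56% of the regions called by age were promoters, against 8.09% when a peak had to cover 50% of a region. Leaving out 1 GMP library at a time gave 3093 to 6731 aged-only and 2173 to 6136 young-only regions, where 1 library stands for an age. The difference in peak number then ranged from -2378.5 (without young 1) to 8333.5, and the same-age Jaccard excess from -0.0087 (without aged 1; -0.0047 without aged 2) to 0.0128. Shared regions called higher and lower numbered 5 and 4 on summit fragments, 1 and 0 at a mean fold enrichment of at least 5, and 0 to 4 and 0 to 23 when a library was left out. With a replicate block they numbered 48 and 46. The labels do not say whether same-numbered libraries shared a day or pool, and the correlation of their deviations was 0.045. The share of reads kept was alike within a number, at 0.249 and 0.265 in young 1 and aged 1 and 0.494 and 0.453 in young 2 and aged 2. Whether a shared batch lay behind the block result was not tested. Calls of aged-only regions elsewhere ranged from 0.547 to 1.32 percentage points when a GMP or other library was left out and were 0.433 without subtracting mixed regions; those of young-only regions ranged from -0.705 to 0.010 (without young 1). The AP-1 difference over other fractions was -0.605 points for all summits, -0.431 with HSC libraries 1 and 2 only, and -0.975 to -0.654 when a library was left out. AP-1 letters at young-only regions exceeded mixed ones by 2.78 to 8.87 points and GATA letters at aged-only regions by 1.52 to 5.18 points when a GMP library was left out. The cause of these changes was not tested. In 192 further alternatives these results kept their direction and side of the threshold, as did 192 of the values of single named shared regions, of which 35 others passed it (20 with the replicate block) and 0 reversed. The alternatives on motif letters and on single libraries of other fractions were chosen after seeing the data. Equal peak numbers fix the peak difference at 0, and with 3 libraries no pairing ratio exists. Regions called by age had median summits of 12 to 14 fragments, and how their number depends on depth was not tested.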
